A study of Mus musculus with 12 samples.

Results

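The transcription factor NRF2, encoded by Nfe2l2, its repressor KEAP1 and 8 enzymes that it is known to regulate were measured by RNA sequencing in livers of mice given a Upf3b antisense oligonucleotide (ASO). The 10 genes (Nfe2l2, Keap1, Gclc, Gclm, Gsr, Txnrd1, Srxn1, G6pdx, Nqo1 and Hmox1) were chosen by symbol as genes known to respond to NRF2, and stood among 31114 genes in the data. All 12 livers came from hFIX-R29X mice, in which mouse F9 is absent and a minigene of human factor IX carries a nonsense codon, driven by the human transthyretin promoter, mainly in hepatocytes. The mice fell into 3 groups of 4, each of 2 females (replicates 1 and 2) and 2 males (replicates 3 and 4) aged 8 to 14 weeks, and received the vehicle DPBS, a scrambled Control-GalNAc-ASO at 15 mg/kg or Upf3b-GalNAc-ASO at 10 mg/kg. GalNAc is a sugar ligand taken up by hepatocytes, and the doses of the ASOs differed. Each mouse had 6 doses at intervals of 5 days, and livers were taken 48 h after the last.

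NRF2 is held in the cytoplasm by KEAP1, which brings it to a ubiquitin ligase for degradation. When electrophiles or oxidants modify KEAP1, NRF2 accumulates, enters the nucleus, pairs with small MAF proteins and activates genes through antioxidant response elements. In liver, its targets make and recycle glutathione, reduce thioredoxin and conjugate or reduce foreign compounds. UPF3B, the product of the ASO's target, is a factor of nonsense-mediated mRNA decay.

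The core of the antioxidant response element, TGACNNNGC read on either strand, was searched in promoter windows of RefSeq on GRCm38.p6 that ran from 250 bases before to 50 bases after the annotated start. The search covered 7 members, of which Txnrd1 had 3 windows, and 5 of the 7 held a match, the others being Keap1 and Nqo1. Gclc, Hmox1 and Gsr were not searched. Over all 27025 genes with a window, 14.0% held one. The 5 matches are shown because they place the sequence of the element beside the start of the member genes. Capitals mark the match, in the orientation of the gene.
Nfe2l2 (chr2:75704870-75704913, minus strand): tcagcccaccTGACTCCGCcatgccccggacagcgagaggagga
Gclm (chr3:122245398-122245456, plus strand): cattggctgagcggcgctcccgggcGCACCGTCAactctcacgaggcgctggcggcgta
Txnrd1 (chr10:82859089-82859147, plus strand): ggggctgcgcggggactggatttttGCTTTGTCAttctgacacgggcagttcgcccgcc
Srxn1 (chr2:152105542-152105570, plus strand): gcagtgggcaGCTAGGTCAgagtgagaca
G6pdx (chrX:74428904-74428962, minus strand): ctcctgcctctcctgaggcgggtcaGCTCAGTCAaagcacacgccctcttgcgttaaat
The first base of the match lay at position -240 from the start in Nfe2l2, at -134 in Gclm, at -92 in Txnrd1, at -57 in G6pdx and at 29 in Srxn1, counted from the RefSeq start. The RefSeq start of G6pdx, 74428880, lies inside the gene as quantified here, which begins at 74429194 on the minus strand, so the stretch shown is within that longer gene. A match is a description of these letters and not a measured site.

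Depth was 18.5 to 20.39 M estimated counts per DPBS liver, 17.64 to 18.76 M per Control-GalNAc-ASO liver and 13.28 to 17.05 M per Upf3b-GalNAc-ASO liver. Levels are given as CPM, the counts of a gene scaled by the library size, and levels of different genes are compared only as TPM, which also divides by transcript length. Upf3b itself stood at 10.4, 9.38, 13.4 and 10.9 CPM with DPBS, at 8.58, 9.56, 7.93 and 12 CPM with Control-GalNAc-ASO and at 1.58, 0.651, 0.999 and 0.662 CPM with Upf3b-GalNAc-ASO. The 10 hepatocyte markers summed to 83104 and 87113 CPM in females and 52354 and 46783 CPM in males with Upf3b-GalNAc-ASO, against 94837 to 98667 CPM in females and 60442 to 79779 CPM in males of the other groups, so that each Upf3b-GalNAc-ASO liver was lowest within its sex, and the part of this in the results was not tested. Alb was the largest part of the sum, at a mean of 49957 CPM with Upf3b-GalNAc-ASO, 62588 CPM with Control-GalNAc-ASO and 60389 CPM with DPBS. Of the 10 markers, 1 was called lower against each of these groups. The mean of Asgr2 was higher than in both (155 against 133 and 130 CPM), and Ttr and Asgr1 lay between them. In these bulk livers, fewer cells of a type and less RNA per cell cannot be told apart. The 2 Control-GalNAc-ASO livers that stood apart from the rest were replicates 1 and 3. Replicate 1 had 962 CPM over 12 Kupffer cell markers and 3027 CPM over 8 erythroid markers, against at most 507 and 400 CPM in the other livers of its group. Replicate 3 had 86946 CPM over 16 acute phase genes, against at most 15034 CPM in the rest of its group.

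Ordered by TPM in the DPBS livers, Gclm was highest at 293 ± 47.9 TPM (SD, n = 4), followed by Gclc at 99.2 ± 10.1, Gsr at 83.0 ± 8.91 and Txnrd1 at 44.5 ± 2.83. Nfe2l2 (31.1 ± 4.47 TPM), Keap1 (23.5 ± 3.62 TPM) and Srxn1 (14.4 ± 5.71 TPM) came next, and Hmox1 (7.45 ± 1.86 TPM), Nqo1 (6.98 ± 3.34 TPM) and G6pdx (5.14 ± 1.02 TPM) were lowest. Only the steps from Gclm to Gclc, from Gsr to Txnrd1 and from Txnrd1 to Nfe2l2 separated without overlap, and the ranges of the other neighbours in this order overlapped. A transcript of 292 bases held 38.0% to 44.0% of the TPM of Gclm across the 12 livers. The longest, Gclm-201 of 5589 bases, held 8.83% to 12.2%, and 27.3 to 35.2 TPM in the DPBS livers. The rank of Gclm thus rests on its shorter transcripts. In Gsr, a transcript of 347 bases held 14.2% to 42.9% of the TPM.

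In livers with Upf3b-GalNAc-ASO, Nqo1 and Gclc were higher than with Control-GalNAc-ASO, and the other 8 members did not pass the test. Nqo1 (ENSMUSG00000003849, chr8:107388225-107403206, minus strand, GRCm38), which reduces quinones with NAD(P)H, rose 2.06-fold. Gclc (ENSMUSG00000032350, chr9:77754535-77794485, plus strand), the catalytic subunit of the enzyme that limits glutathione synthesis, rose 1.71-fold. The comparison asked what lowering Upf3b does beyond the effect of a GalNAc-conjugated ASO. All 10 members passed the filter (5 TPM or more in 4 or more livers), although G6pdx reached it in 7 livers and Nqo1 in 9. Calls are at an adjusted p under 0.05 in edgeR's quasi-likelihood test with sex as a covariate. In all, 2 of 10 members were called, both higher, where 10.3% of the 8846 genes tested were called, 4.34% higher and 5.95% lower. The median log2 fold change was 0.20 over the members and -0.02 over all genes tested. The levels of 3 members, Nqo1, Gclc and Nfe2l2, did not overlap between the groups, as was so for 15.4% of all genes tested.

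**Figure D1:**
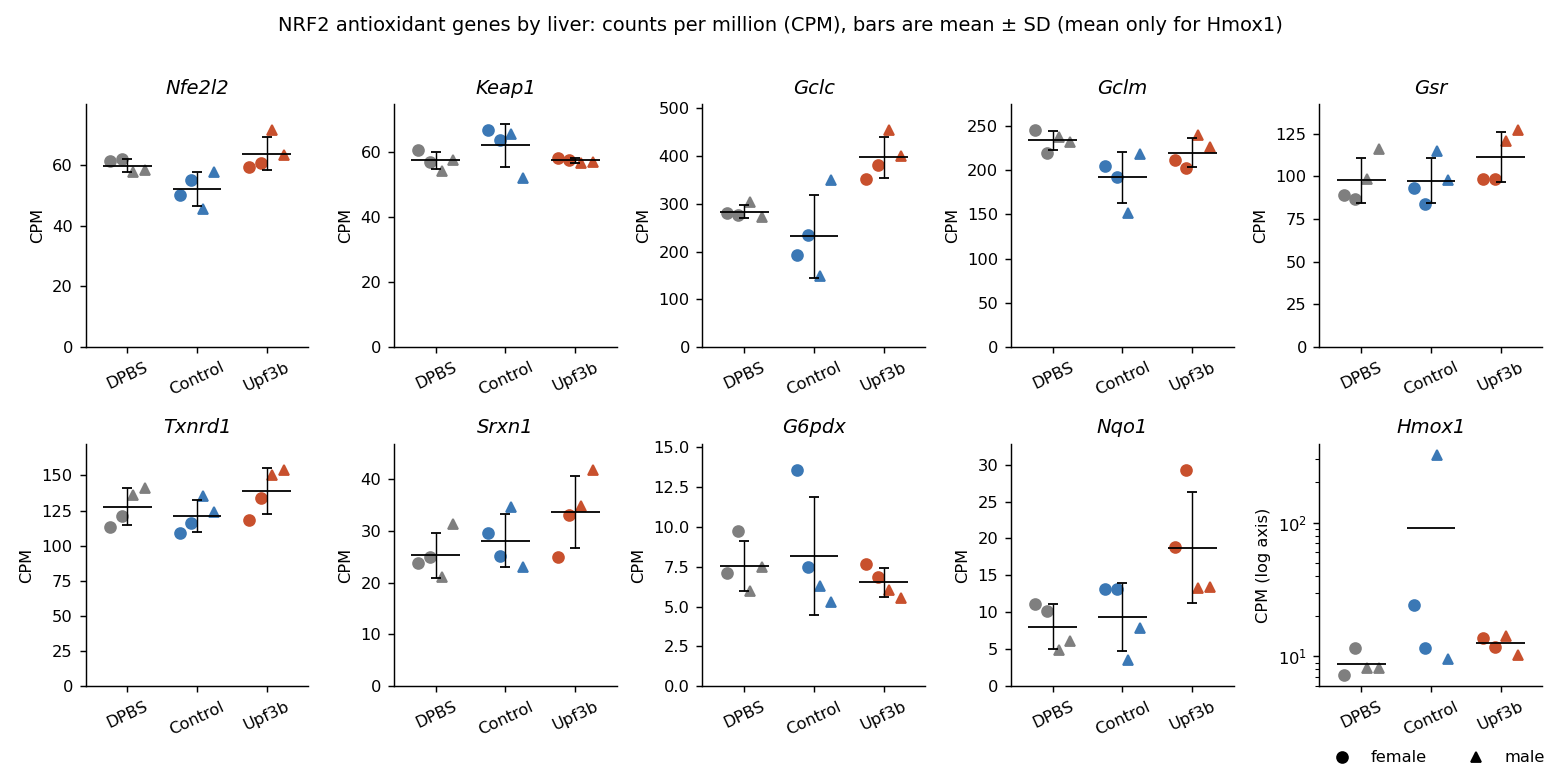
CPM of each member (vertical axis, from 0 except for Hmox1, whose axis is logarithmic) in the 4 livers of each group (horizontal axis: DPBS, Control-GalNAc-ASO, Upf3b-GalNAc-ASO), with circles for females, triangles for males and bars for the mean and SD. Nqo1 and Gclc sit higher in every Upf3b-GalNAc-ASO liver than in any liver of the other groups, and Hmox1 reaches 321 CPM in 1 Control-GalNAc-ASO liver.

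Nqo1 stood at 18.9 and 29.3 CPM in females and 13.3 and 13.4 CPM in males with Upf3b-GalNAc-ASO. With Control-GalNAc-ASO it stood at 13.1 and 13.1 CPM in females and 3.53 and 7.83 CPM in males, and with DPBS at 11.1 and 10.2 CPM in females and 4.92 and 6.09 CPM in males. The lowest Upf3b-GalNAc-ASO liver, a male, was thus just above the highest control females, while within each sex the groups lay further apart. The log2 fold change against Control-GalNAc-ASO was 1.05 ± 0.22 (SE; edgeR, adjusted p = 0.012). It passed in 11 of 12 fits that each left out 1 liver, and without Upf3b-GalNAc-ASO replicate 2 it was 0.94 with an adjusted p of 0.0505. The log2 fold change against DPBS was 1.23 ± 0.22 (edgeR, adjusted p = 0.0058), and it passed in all 12 such fits. Without sex in the model neither value passed (adjusted p = 0.172 against Control-GalNAc-ASO and 0.128 against DPBS). The call against Control-GalNAc-ASO was also lost with only the 2 groups fitted (edgeR, adjusted p = 0.0686) and with limma on log2(TPM + 0.1) (adjusted p = 0.0506).

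Gclc stood at 353, 382, 454 and 400 CPM with Upf3b-GalNAc-ASO. It stood at 193, 235, 149 and 350 CPM with Control-GalNAc-ASO and at 281, 277, 303 and 273 CPM with DPBS. The DPBS livers were close together, while the Control-GalNAc-ASO livers ranged from well below them to the edge of the Upf3b-GalNAc-ASO range. The log2 fold change against Control-GalNAc-ASO was 0.78 ± 0.21 (edgeR, adjusted p = 0.04). This call was narrow: of 12 fits that left out 1 liver, it passed in 2, without Control-GalNAc-ASO replicate 3 (0.60, adjusted p = 0.00828) and without replicate 4 (1.05, adjusted p = 0.00389). Over all genes tested, 24.5% and 12.1% were called in those 2 fits. The call for Gclc was also lost without sex in the model (adjusted p = 0.0558), with only the 2 groups fitted (0.135), with edgeR's own expression filter (0.0536) or with limma on TPM (0.0763 and 0.0853). The log2 fold change against DPBS was 0.48 ± 0.21 and did not pass (edgeR, adjusted p = 0.19), although the groups did not overlap. With only these 2 groups fitted the value was 0.49 and passed (edgeR, adjusted p = 0.00207), where 28.0% of all genes tested were called. Of 13 alternative fits, beyond those that left out 1 liver, 3 called Gclc against DPBS. Without Control-GalNAc-ASO replicate 3, which shares in the estimate of spread, the value of 0.48 passed (adjusted p = 0.0126). In that fit 28.7% of all genes tested were called against DPBS, where 8.93% were called with all livers.

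Gclm encodes the modifier subunit of the same enzyme as Gclc. It stood at 211, 203, 240 and 226 CPM with Upf3b-GalNAc-ASO, 205, 192, 152 and 218 CPM with Control-GalNAc-ASO and 245, 220, 238 and 232 CPM with DPBS. Its log2 fold change was 0.20 ± 0.11 against Control-GalNAc-ASO (edgeR, adjusted p = 0.28) and -0.09 against DPBS (adjusted p = 0.71). The difference between the 2 subunits was not tested. Every Control-GalNAc-ASO liver held less Gclm than every DPBS liver, at -0.29 ± 0.11 on the log2 scale, which did not pass (edgeR, adjusted p = 0.64).

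Of the regulators, Nfe2l2 (ENSMUSG00000015839) stood at 59.3, 60.6, 71.4 and 63.4 CPM with Upf3b-GalNAc-ASO, 50.0, 55.1, 45.5 and 57.8 CPM with Control-GalNAc-ASO and 61.3, 61.9, 57.6 and 58.2 CPM with DPBS. The Upf3b-GalNAc-ASO livers lay above all Control-GalNAc-ASO livers but overlapped the DPBS livers. The log2 fold change was 0.29 ± 0.09 against Control-GalNAc-ASO (edgeR, adjusted p = 0.076) and 0.09 ± 0.09 against DPBS (adjusted p = 0.63). The first value passed without Control-GalNAc-ASO replicate 3 (0.22, adjusted p = 0.0488) or replicate 4 (0.35, adjusted p = 0.0482). Over all genes tested, 24.5% and 12.1% were called in those fits. DESeq2 called Nfe2l2 against Control-GalNAc-ASO (adjusted p = 0.0295), where it called 17.9% of all genes tested. Keap1 stood at 56.8 to 58.3 CPM with Upf3b-GalNAc-ASO, 52.2 to 66.8 CPM with Control-GalNAc-ASO and 54.4 to 60.9 CPM with DPBS, and its adjusted p was 0.39 and 1.0 against the 2 groups. NRF2 activity is set largely at the level of protein, which these data did not measure.

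Gsr, Txnrd1, Srxn1 and G6pdx did not pass edgeR's test in livers with Upf3b-GalNAc-ASO. DESeq2 called Txnrd1 against Control-GalNAc-ASO (adjusted p = 0.0263), where it called 17.9% of all genes tested. Gsr, which regenerates reduced glutathione, ranged from 98.6 to 127 CPM with Upf3b-GalNAc-ASO, 83.8 to 115 CPM with Control-GalNAc-ASO and 87.0 to 116 CPM with DPBS. Txnrd1, the cytosolic thioredoxin reductase, ranged from 118 to 154 CPM, 109 to 135 CPM and 113 to 141 CPM in the same order. Both differed by 0.19 on the log2 scale from Control-GalNAc-ASO (edgeR, adjusted p = 0.14 for Gsr and 0.098 for Txnrd1). Without Control-GalNAc-ASO replicate 3 both passed, at 0.23 (adjusted p = 0.0331) for Gsr and 0.22 (adjusted p = 0.0314) for Txnrd1. In that fit 24.5% of all genes tested were called, against 10.3% with all livers. Srxn1, the sulfiredoxin that repairs over-oxidized peroxiredoxins, stood at 24.9, 33.0, 34.8 and 41.8 CPM with Upf3b-GalNAc-ASO, against 23.1 to 34.7 CPM and 21.0 to 31.3 CPM with Control-GalNAc-ASO and DPBS. Its log2 fold change was 0.25 ± 0.17 against Control-GalNAc-ASO (adjusted p = 0.36) and 0.40 ± 0.17 against DPBS (adjusted p = 0.18). G6pdx, the NADPH-producing first enzyme of the pentose phosphate pathway, ranged from 5.56 to 7.67 CPM, 5.32 to 13.6 CPM and 5.98 to 9.73 CPM, and its log2 fold change against Control-GalNAc-ASO was -0.29 ± 0.21 (adjusted p = 0.39). Its highest value was in Control-GalNAc-ASO replicate 1, and without livers 1 and 3 of that group the value was 0.03. G6pd2, an autosomal copy of G6pdx, had 0 counts in every liver.

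**Figure D2:**
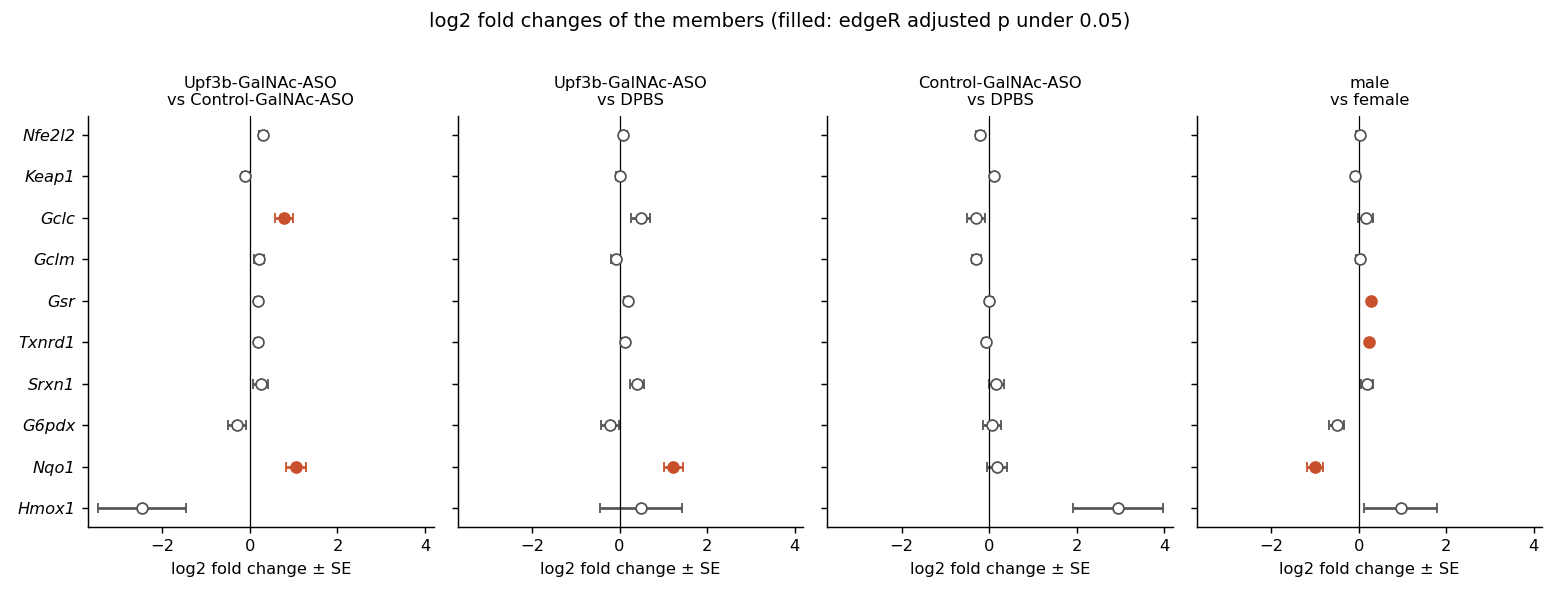
log2 fold change of each member (horizontal axis, with bars of 1 SE) in 4 comparisons, with filled points where the edgeR adjusted p was under 0.05. Nqo1 passes in 3 of the 4, and Hmox1 has the widest error bars. The male against female values of Gsr and Txnrd1, positive here, turn negative on TPM, which is not plotted.

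Hmox1 (ENSMUSG00000005413, chr8:75093621-75100589, plus strand), the inducible heme oxygenase, which degrades heme, had the most uneven values of the members. It stood at 24.3, 11.6, 321 and 9.62 CPM with Control-GalNAc-ASO. The other livers held 10.2 to 14.3 CPM with Upf3b-GalNAc-ASO and 7.23 to 11.5 CPM with DPBS. The 321 CPM were in replicate 3, with its high sum of acute phase genes, and the 24.3 CPM were in replicate 1, with its high sums of Kupffer cell and erythroid markers, and the part of these in the result was not tested. The log2 fold change against Control-GalNAc-ASO was -2.46 ± 1.01 (edgeR, adjusted p = 0.14), -0.20 without replicate 3 and 0.24 without replicates 1 and 3. DESeq2, with all livers, called Hmox1 lower (-2.49, adjusted p = 0.0474), where it called 17.9% of all genes tested. Against DPBS the log2 fold change was 0.49 ± 0.93 (edgeR, adjusted p = 0.81). In a fit without those 2 livers, chosen after seeing the data, it was 0.51 and passed (adjusted p = 0.029). That fit called 29.7% of all genes tested against DPBS. With only the Upf3b-GalNAc-ASO and DPBS groups fitted, Hmox1 was 0.51 and passed (edgeR, adjusted p = 0.0408), where 28.0% of all genes tested were called. Of 13 alternative fits, beyond those that left out 1 liver, 2 called Hmox1 against DPBS.

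**Figure D3:**
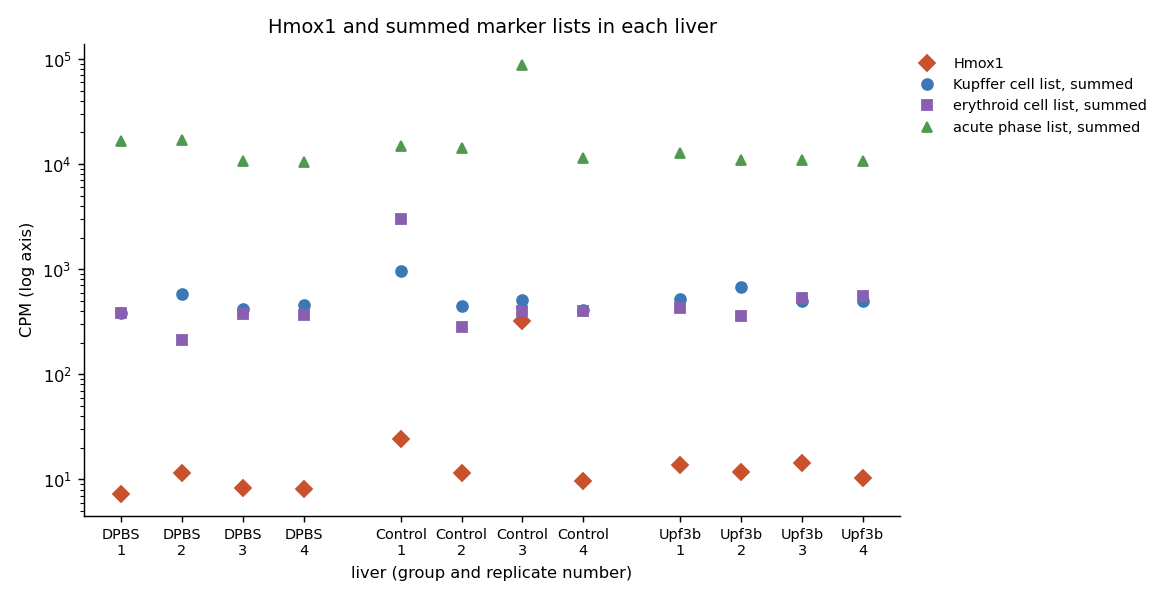
Hmox1 and the summed markers of Kupffer cells, erythroid cells and the acute phase in each liver, in CPM on a logarithmic axis, by group and replicate number. Control-GalNAc-ASO replicate 3 is highest for Hmox1 (321 CPM) and acute phase genes (86946 CPM), and replicate 1 for Kupffer cell (962 CPM) and erythroid (3027 CPM) markers.

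Against the vehicle, Nqo1 alone among the members passed the test. That was 1 of 10 members, where 8.93% of all genes tested were called, and the levels of 2 members, Nqo1 and Gclc, did not overlap, as was so for 22.4% of all genes tested. The median log2 fold change over the members was 0.16. This comparison and the preceding one share the Upf3b-GalNAc-ASO livers and a single estimate of spread. Between Control-GalNAc-ASO and DPBS, no member passed edgeR's test, with adjusted p values from 0.64 to 1.0. At an unadjusted p under 0.05 there were 2 members, Hmox1 and Gclm, and 616 of the 8846 genes tested. DESeq2 called 0 members and 0.486% of all genes tested. Over all genes, edgeR called 0.0113% in that comparison, and the levels of 1 member, Gclm, did not overlap, against 2.95% of all genes tested.

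Between males and females, Nqo1, Gsr and Txnrd1 passed the test, and the direction of the last 2 turned on TPM. Over the 3 groups, Nqo1 was 8.19 ± 4.26 CPM in 6 males and 15.9 ± 7.22 CPM in 6 females (log2 fold change -0.99 ± 0.18; edgeR, adjusted p = 0.0053), and this passed in all 12 fits leaving out 1 liver. Gsr was 113 ± 12 CPM in males and 91.8 ± 6.19 CPM in females (log2 fold change 0.29 ± 0.06, adjusted p = 0.015), but on log2(TPM + 1) the value was -0.17. Txnrd1 was 140 ± 10.7 CPM in males and 118 ± 8.43 CPM in females (log2 fold change 0.24 ± 0.06, adjusted p = 0.022), but on log2(TPM + 1) the value was -0.08. On that TPM scale the median of all genes tested was -0.29 between males and females, so both genes remained above the median. In all, 3 members were called, where 10.0% of all genes tested were called. The levels of males and females, pooled over the 3 groups, overlapped for each of the 10. The share of all genes that overlapped in this way was not counted. The call for Txnrd1 held in 7 of the 12 fits.

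The response of Nqo1 to Upf3b-GalNAc-ASO was measured in each sex. Against Control-GalNAc-ASO its log2 fold change was 0.89 ± 0.32 in females and 1.22 ± 0.34 in males, and the difference of 0.34 ± 0.46 did not pass edgeR's interaction test (adjusted p = 0.73). Gclc had 0.78 ± 0.32 in females and 0.77 ± 0.32 in males. No member passed edgeR's interaction test, and 0.0% of all genes did. At an unadjusted p under 0.05 there were 0 members and 646 of the 8846 genes, from 2 livers of each sex per group. Without Control-GalNAc-ASO replicate 4, which leaves replicate 3 as the lone male of its group and assumes that it varies like the other livers, 5 members passed, but so did 43.7% of all genes tested.

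The index held 29 transcripts of the 10 members, of which 18 were annotated as protein coding, 8 as processed transcripts, 3 as retained introns and 0 as substrates of nonsense-mediated decay. Of these, 25 were tested between Upf3b-GalNAc-ASO and Control-GalNAc-ASO, and edgeR called 0 of them, with a lowest adjusted p of 0.086. Over the 33212 transcripts tested, 0.985% were called. Of the 25, 6 had an unadjusted p under 0.05, and that share was not counted over all transcripts. Nqo1, Gclc and Txnrd1 had a single transcript each, so their gene values are transcript values too.

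Nfe2l2 was read through 2 transcripts whose balance differed in 1 liver. Nfe2l2-201 (chr2:75675513-75704641, minus strand, GRCm38) has 5 exons and codes for NRF2. Nfe2l2-202, a processed transcript of 1447 bases, shares 126 bases of the first exon and ends in an exon of 1321 bases at chr2:75691052-75692372, inside the first intron of Nfe2l2-201. In Control-GalNAc-ASO replicate 3, Nfe2l2-202 held 400 estimated counts and 26.8 CPM, or 76.0% of the TPM of the gene, against 2.29 to 5.23 CPM and 6.55% to 14.1% in the other 11 livers. Nfe2l2-201 stood at 15.5 CPM in that liver (231 estimated counts), against 45.1 to 65.7 CPM in the others. This was the liver with the high acute phase sum, whose part was not tested. Summed over protein-coding transcripts only, the log2 fold change of Nfe2l2 between Upf3b-GalNAc-ASO and Control-GalNAc-ASO was 0.52 in place of 0.29 (edgeR, adjusted p = 0.23). With an offset for transcript length it was 0.16 (edgeR, adjusted p = 0.278), and on log2(TPM + 1) 0.22 (limma, adjusted p = 0.286).

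**Figure D4:**
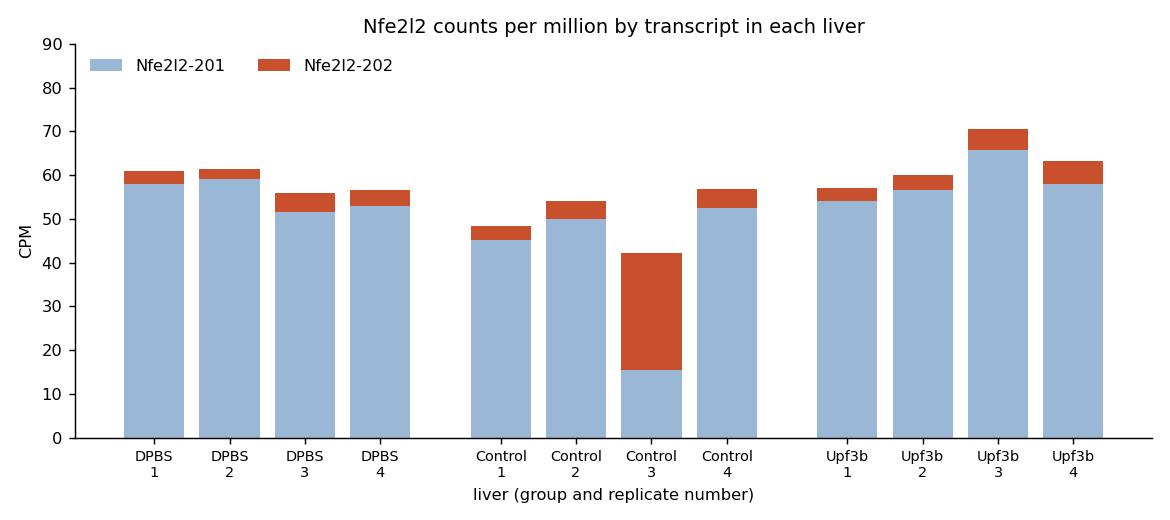
CPM of Nfe2l2-201 and Nfe2l2-202, stacked, in each of the 12 livers by group and replicate number, scaled over transcripts and so not exactly the sum given for the gene. Nfe2l2-202 holds 26.8 CPM in Control-GalNAc-ASO replicate 3 and at most 5.23 CPM in every other liver.

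Beyond the 10 members, 99 genes in 8 lists linked to NRF2 were read, and 87 were tested. Of the 87, 17 were called between Upf3b-GalNAc-ASO and Control-GalNAc-ASO, 13 higher and 4 lower, where 10.3% of all genes tested were called, 4.34% higher and 5.95% lower. Against DPBS, 14 were called, 11 higher and 3 lower, where 8.93% of all genes tested were called. Of the 13 that rose against Control-GalNAc-ASO, 12 were glutathione S-transferases or other detoxification enzymes. The lists of NADPH-producing enzymes (9 tested), heme and iron genes (9 tested) and dismutases and catalase (3 tested) had 0 calls in edgeR's test, which in lists of this length is close to the share over all genes. At an unadjusted p under 0.05 these 3 lists held 1, 2 and 1 genes, against 2481 of all 8846 genes tested. DESeq2 called 0, 0 and 1 of them, where it called 17.9% of all genes tested.

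Glutathione S-transferases join glutathione to electrophiles, and 6 of the 21 tested rose and 1 fell, with a median log2 fold change of 0.37. Gsta1 rose from 2.62 ± 2.94 to 45.1 ± 26.8 CPM (log2 fold change 4.41 ± 0.48; edgeR, adjusted p = 0.00039). Gsta2 rose from 20.9 ± 10.4 to 69.7 ± 16.6 CPM (1.75 ± 0.24). Gstm4 rose by 1.28 ± 0.23 and Gsta4 by 1.06 ± 0.15 on the log2 scale, and Gstt3 fell from 68.2 ± 39.5 to 28.9 ± 20.7 CPM (-1.30 ± 0.19). Each of these 5 also passed against DPBS, at 4.41, 1.99, 0.96, 0.94 and -1.07. The families are close in sequence, so the division of reads within them is uncertain. Of the other detoxification enzymes, 6 of 15 were called, each higher, with a median of 0.27. Ugdh, which makes UDP-glucuronate, rose from 140 ± 23.9 to 287 ± 89.9 CPM (0.98 ± 0.17), and Ephx1, the microsomal epoxide hydrolase, from 235 ± 37.5 to 434 ± 54.7 CPM (0.89 ± 0.10). Aox1, an aldehyde oxidase, rose from 111 ± 36.2 to 215 ± 84.1 CPM (0.89 ± 0.15) and Htatip2 from 13.5 ± 5.06 to 23.2 ± 4.36 CPM (0.84 ± 0.17). With DPBS, Ugdh stood at 138 ± 26.7, Ephx1 at 322 ± 56.2, Aox1 at 161 ± 58.6 and Htatip2 at 14.9 ± 4.19 CPM. Against DPBS, 4 of the 15 genes of this list were called, each higher. Sums of hepatocyte zone markers were lower with Upf3b-GalNAc-ASO than with Control-GalNAc-ASO. The 8 pericentral markers summed to 4885 to 6386 CPM with Upf3b-GalNAc-ASO, 6634 to 10333 CPM with Control-GalNAc-ASO and 6974 to 7852 CPM with DPBS. The sums over 8 periportal markers were 5944 to 7102, 7978 to 12174 and 8237 to 8972 CPM. Such sums weigh abundant genes most. Against Control-GalNAc-ASO, 4 of 7 pericentral markers tested and 1 of 8 periportal markers were called lower, where 5.95% of all genes tested were. The mean CPM of the periportal Hal, Cyp2f2 and Gls2 was not lower than with Control-GalNAc-ASO. None of these markers was at 0 in every liver, and their part in the results was not tested.

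**Figure D5:**
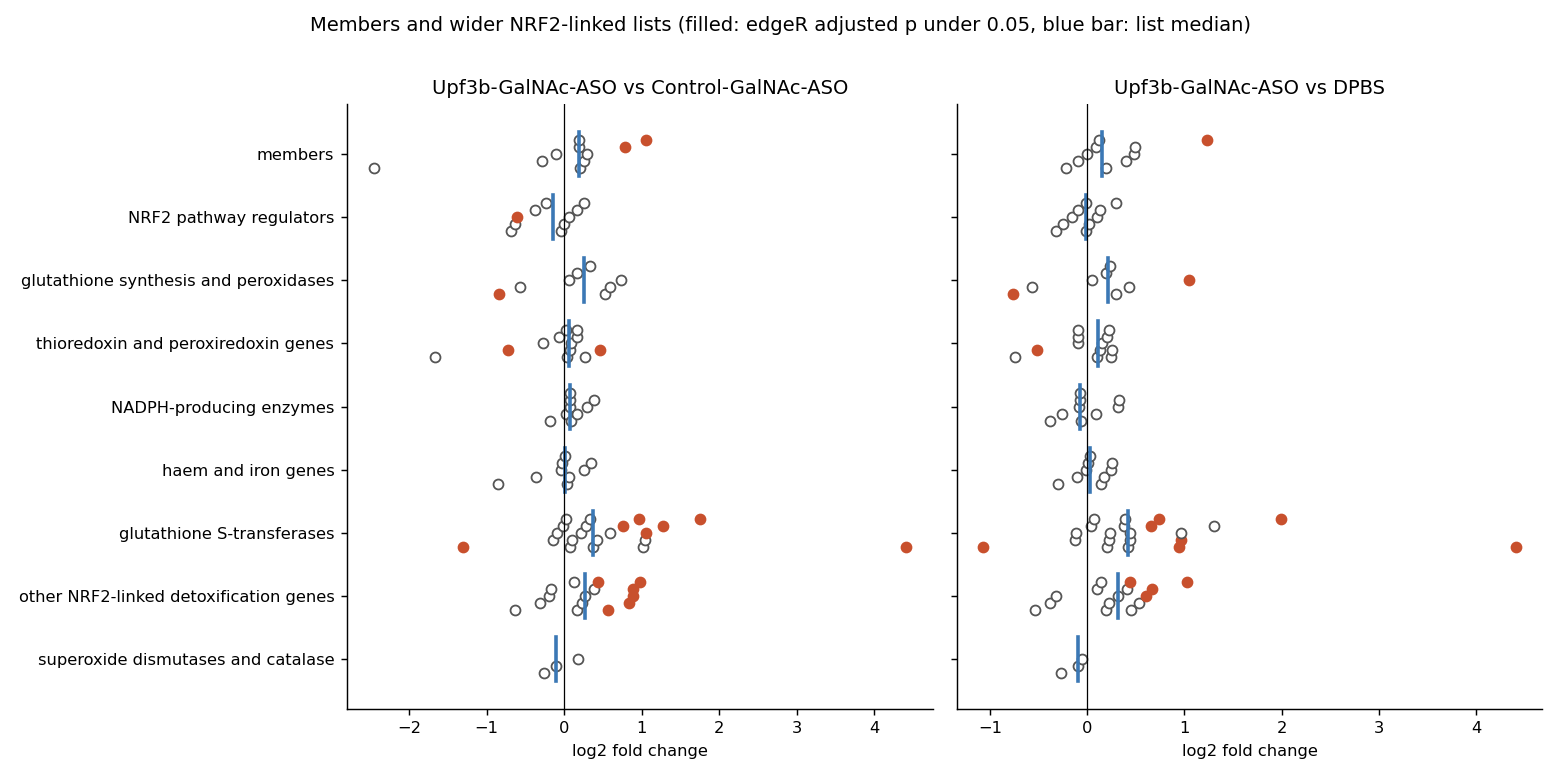
log2 fold change (horizontal axis) of every tested gene of the members and the 8 wider lists (rows), against Control-GalNAc-ASO on the left and DPBS on the right, with filled points where the edgeR adjusted p was under 0.05 and blue bars at the list median. Most filled points lie to the right of 0, in the rows of glutathione S-transferases and other detoxification genes, with Gsta1 farthest at 4.41.

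Among the other pathway regulators, 1 of 10 tested was called, and it fell. Over all genes tested 10.3% were called, 4.34% higher and 5.95% lower. The counts in this list and in the lists of glutathione and thioredoxin genes are close to that share for lists so short. Bach1, which competes with NRF2 at the same elements, went from 92.5 ± 23.3 CPM with Control-GalNAc-ASO to 61.3 ± 20.1 CPM with Upf3b-GalNAc-ASO (log2 fold change -0.61 ± 0.12; edgeR, adjusted p = 0.0093), and it passed in all 12 fits that left out 1 liver. It did not pass against DPBS. In the list of glutathione synthesis and peroxidases, which had 8 genes tested, 1 fell, the glutaredoxin Glrx (-0.84 ± 0.21, adjusted p = 0.029). In the thioredoxin list, with 12 tested, the mitochondrial reductase Txnrd2 rose (0.46 ± 0.12, adjusted p = 0.033) and Txnrd3 fell (-0.73 ± 0.12, adjusted p = 0.005). Of the 12 fits that left out 1 liver, Glrx passed in 7, Txnrd2 in 4 and Txnrd3 in 12.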

How the data were processed

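Estimated counts and TPM were deposited per transcript for 12 livers. The authors made them from TruSeq total RNA libraries with bcl2fastq 2.17.1.14 and Salmon 0.7.2 against GRCm38.p4. Estimated counts, as deposited, can be fractional where reads are shared. TPM, as deposited, are scaled by the authors within a liver over 92468 transcripts. Groups and sexes came from the labels, which name no batch. Transcripts were joined to genes through GENCODE M21 (98.1% joined, 97.51% to 99.26% of counts, 79.7% to 95.91% of TPM). Counts were summed per gene and rounded, and 8846 genes that reached 5 TPM in 4 or more livers were tested, as were 33212 transcripts that reached 1 TPM in 4 or more.

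The test was the quasi-likelihood test of edgeR 4.0.16 with TMM scaling, 1 fit over all livers, sex as a covariate and Benjamini-Hochberg adjustment over all features, with calls under 0.05. Standard errors were obtained by dividing the log2 fold change by the root of F. Alternatives used limma 3.58.1 and DESeq2 1.42.0. Replicates were separate livers, and no 2 of a group agreed within sampling noise. The members and lists were chosen with earlier results of these data known, so counts over them are descriptions. All members were named, and of each wider list the genes called against Control-GalNAc-ASO, at most 4 per direction by size. The methods were tested on simulated counts. Livers given the Upf1 ASO were not analysed here.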

Additional observations from a re-analysis of the deposited data

Results flagged for a closer look

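Over 33 groups of 4 livers (10 member levels and 1 transcript share in 3 groups), 2 held a liver whose gap to the nearest other, relative to the range of the group, was larger than chance gives in about 1 of 20 groups, which would be 1.6 groups here. Both were Control-GalNAc-ASO replicate 3. The 1 share searched was that of Nfe2l2-202, out of 29 transcripts of the members, and the values searched came from the same livers. The 1.6 groups are therefore no test of the 2. Hmox1 stood there at 321 CPM, with 9.62 to 24.3 CPM in the other 3 livers of the group. Nfe2l2-202 held 76.0% of the TPM of Nfe2l2 there, with 11.6% to 13.4% in the other 3. The same liver had the lowest level of its group for Nfe2l2 (45.5 CPM), Gclc (149 CPM), Gclm (152 CPM) and Nqo1 (3.53 CPM), and the highest for Gsr (115 CPM), Txnrd1 (135 CPM) and Srxn1 (34.7 CPM).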

How the results depend on the processing

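Against Control-GalNAc-ASO, 2 members were called. The count was 1 with edgeR's expression filter, with limma on log2(TPM + 1) and at the cutoffs of the study, 0 with limma on log2(TPM + 0.1), without the sex covariate and with only the compared groups, 5 with the Wald test of DESeq2, 6 with sample quality weights, and 0 to 5 when 1 liver was left out (0 without Upf3b-GalNAc-ASO replicate 2, 5 without Control-GalNAc-ASO replicate 3). The count of 17 in the wider lists became 29 with DESeq2, 9 without sex, 42 with quality weights, 6 at the cutoffs of the study, 28 without Control-GalNAc-ASO livers 1 and 3 (chosen after seeing the data), and 13 to 30 when 1 liver was left out (30 without Control-GalNAc-ASO replicate 3). Calls over all genes tested changed too, from 10.3% as reported to 17.9% with DESeq2, 32.4% with quality weights and 5.87% without sex. The share was 19.6% without Control-GalNAc-ASO livers 1 and 3, 24.5% without replicate 3 and 5.95% without Upf3b-GalNAc-ASO replicate 2. The 1 member called against DPBS became 0 without sex, 4 with only the compared groups, with quality weights and without livers 1 and 3, and 1 to 3 when 1 liver was left out (3 without Control-GalNAc-ASO replicate 3). Over all genes tested against DPBS, 8.93% were called as reported and 5.4% without sex. The share was 28.0% with only the compared groups, 33.3% with quality weights, 29.7% without livers 1 and 3 and 28.7% without replicate 3. No member was called between Control-GalNAc-ASO and DPBS when 1 liver was left out. The 3 members called between males and females became 1 with no filter, 0 at the cutoffs of the study, and 2 to 3 when 1 liver was left out. The interaction count ranged from 0 to 5 (5 without Control-GalNAc-ASO replicate 4, where 43.7% of all genes tested passed) and the count of transcripts from 0 to 1 (1 without Control-GalNAc-ASO replicate 3 or 4). The cause of these changes was not tested.

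With the replicate number as a block, 1 member was called against Control-GalNAc-ASO, and Gclc did not pass (0.81, adjusted p = 0.053). Of the wider lists, Glrx (adjusted p = 0.052) and Txnrd2 (adjusted p = 0.064) did not pass. Whether the numbers pair the livers was not settled. Deviations from the means of group and sex correlated from -0.11 to 0.16 between livers of the same number. Of these pairs, 6 of 12 were over 0.1. Within a group and sex, the deviation of 1 liver mirrors that of the other. The same correlation therefore recurs among the 12 pairs, and the check cannot decide the question.

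Some values changed sign or went to 0, counted where the value as reported was larger than its SE. Keap1 against Control-GalNAc-ASO was 0.00 with a length offset and 0.07 and 0.08 with limma on TPM, and 0.00 in both for Control-GalNAc-ASO against DPBS. Without Control-GalNAc-ASO livers 1 and 3, Hmox1 was 0.24 and G6pdx 0.03 against Control-GalNAc-ASO, and Gclc 0.03 between Control-GalNAc-ASO and DPBS. Between males and females, limma on TPM gave -0.08 and -0.08 for Txnrd1, -0.10 and -0.11 for Srxn1 and -0.17 and -0.18 for Gsr, with the median of all genes at -0.29 and -0.31. Hmox1 was -0.19 with quality weights, -0.15 without livers 1 and 3, and -0.31 (without Control-GalNAc-ASO replicate 3) to 1.20 when 1 liver was left out.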
